A study of Mus musculus with 31 samples.

Results

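Neurospheres grown from the cerebellar white matter and from the forebrain's subventricular zone (SVZ) were compared on Affymetrix mouse expression arrays. Neurospheres are floating clusters that neural stem cells (NSC) and their early progeny form in serum-free medium with growth factors. The comparison takes 6 of the 31 arrays of the series, chosen by their labels alone: 3 of cerebellar NSC and 3 of SVZ NSC. Another 3 NSC arrays, from the IV ventricle region of the hindbrain, shared the model fit and is given beside some genes, and the other arrays hold tumour material that was not used here. Both groups came from C57BL/6 mice at postnatal day 7, and WT in their sample names is taken as wild type. Both were kept with EGF and FGF2, and the spheres were spun down 3 to 5 days after plating, so the growth factors and the culture are common to both. The labels call the samples of a group biological replicates and do not say whether these were separate animals or pools, so the p-values measure the spread between these samples.

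Cells along the neural tube acquire a position code during development, written in homeobox and zinc finger transcription factors that differ between the forebrain, the midbrain and the hindbrain. The SVZ lines the lateral ventricle and supplies neurons to the olfactory bulb and glia to the forebrain. The white matter of the early postnatal cerebellum holds progenitors of interneurons and astroglia and is derived from the hindbrain side of the boundary with the midbrain. The data show which parts of that code, and which signalling and matrix genes, differed between cultures grown in the same medium.

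For the patterning genes on which the comparison turns, the sequence around the start of transcription is printed here as RefSeq gives it for GRCm38.p6, from 250 bases before to 50 bases after the start. The array files name no genome build, and these positions are those of the sequence table. Capitals mark matches, on either strand, to 4 short motifs: the homeodomain core TAATTA, the Tcf/Lef core CTTTGA, the GC box GGGCGG and the TATA box TATAAA. Six3 and its neighbour on the opposite strand, Six3os1, are shown with Emx2 since all 3 were lower in cerebellar NSC, and Irx3 with Crnde since both were higher.
Six3 (chr17:85620584-85620883, plus strand): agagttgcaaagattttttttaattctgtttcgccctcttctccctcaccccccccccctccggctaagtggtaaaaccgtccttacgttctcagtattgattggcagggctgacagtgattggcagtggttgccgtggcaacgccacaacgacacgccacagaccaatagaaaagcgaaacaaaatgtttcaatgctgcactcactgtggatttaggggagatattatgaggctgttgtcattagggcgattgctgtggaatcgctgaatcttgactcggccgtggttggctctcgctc
Six3os1 (chr17:85618347-85618646, minus strand): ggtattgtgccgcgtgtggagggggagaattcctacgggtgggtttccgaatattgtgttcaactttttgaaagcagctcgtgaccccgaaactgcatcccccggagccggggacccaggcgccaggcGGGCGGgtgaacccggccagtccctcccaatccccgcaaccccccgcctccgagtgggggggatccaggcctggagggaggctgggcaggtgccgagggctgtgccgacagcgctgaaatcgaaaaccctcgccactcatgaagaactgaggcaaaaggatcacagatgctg
Emx2 (chr19:59458440-59458739, plus strand): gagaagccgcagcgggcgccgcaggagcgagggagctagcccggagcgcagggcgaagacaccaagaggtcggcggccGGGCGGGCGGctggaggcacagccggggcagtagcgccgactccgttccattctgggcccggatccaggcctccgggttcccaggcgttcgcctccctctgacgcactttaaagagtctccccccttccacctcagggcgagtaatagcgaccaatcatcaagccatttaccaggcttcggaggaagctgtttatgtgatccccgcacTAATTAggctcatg
Irx3 (chr8:91801605-91801904, minus strand): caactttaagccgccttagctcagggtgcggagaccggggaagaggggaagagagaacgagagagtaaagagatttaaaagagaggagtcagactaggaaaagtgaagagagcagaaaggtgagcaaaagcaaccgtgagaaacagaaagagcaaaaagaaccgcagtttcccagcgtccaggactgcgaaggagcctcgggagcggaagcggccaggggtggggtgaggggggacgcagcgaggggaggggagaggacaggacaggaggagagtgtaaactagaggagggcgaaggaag
Crnde (chr8:92356071-92356370, minus strand): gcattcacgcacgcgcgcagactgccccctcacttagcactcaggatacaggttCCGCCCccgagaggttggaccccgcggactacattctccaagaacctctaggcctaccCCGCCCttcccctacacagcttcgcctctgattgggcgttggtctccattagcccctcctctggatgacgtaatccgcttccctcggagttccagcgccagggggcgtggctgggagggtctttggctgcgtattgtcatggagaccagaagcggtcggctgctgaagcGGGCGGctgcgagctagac
The Emx2 window holds 1 homeodomain core and 2 overlapping GC boxes, that of Six3os1 holds 1 GC box and that of Crnde 3. Neither the Six3 nor the Irx3 window holds any of the 4 motifs in these letters. Promoters of 1 chromosome were left out of the counts that follow. Over the 14453 measured genes with a remaining promoter, 3.37% held the homeodomain core, 13.6% the Tcf/Lef core, 53.4% the GC box and 9.82% the TATA box. Among the 79 such genes called higher in cerebellar NSC the shares were 2.53%, 11.4%, 68.4% and 7.59%, and among the 74 called lower they were 2.70%, 14.9%, 56.8% and 13.5%. A match is a run of letters and not a bound site.

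Each value is an RMA log2 intensity of 1 probe set per gene, so that 1 unit is a 2-fold change, and differences are cerebellar minus SVZ with the standard error of the limma fit. Calls of higher or lower rest on a Benjamini-Hochberg adjusted p under 0.05 over all 18194 genes. Intensities of different probe sets are not compared with each other. As a guide to the reading of genes without expression, 73 receptor genes of smell, taste and pheromone sensing were used, whose group means had a median of 1.47 and a 95th percentile of 2.69. Where the lower group mean lay at or under 2.69, a lower bound is printed in place of the difference, the higher mean minus 2.69, and is marked by "at least". The medians of the 6 arrays lay between 3.166 and 3.242, and the number of arrays limits the precision. In whole cultures, fewer cells of a type and less RNA per cell cannot be told apart.

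Neural progenitor markers were detected in both groups. Nes, the intermediate filament nestin, read 9.13, 9.56 and 9.50 in cerebellar NSC and 9.25, 9.77 and 9.38 in SVZ NSC. Sox2, the transcription factor that keeps neural progenitors undifferentiated, read 9.98, 9.92 and 9.73 in cerebellar NSC and 9.85, 9.79 and 9.95 in SVZ NSC, and the proliferation marker Mki67 averaged 9.95 ± 0.05 in cerebellar NSC and 9.95 ± 0.07 in SVZ NSC (SD, n = 3 each). All 3 overlapped between the groups. The 36 neural stem and radial glial markers summed to a linear intensity of 20180, 22398 and 18711 in cerebellar NSC and 23491, 22832 and 23209 in SVZ NSC, lower in cerebellar NSC without overlap. Of the 36, 25 had differences below 0, where 7783 of all 18194 genes had. The part of this in the results was not tested. The microglia markers Aif1, C1qa and Tyrobp had group means under the guide level on both sides. So had the endothelial markers Pecam1, Cdh5 and Cldn5 and the fibroblast markers Col1a1 and Col3a1. Over the fuller lists, both means lay at or under it for 17 of 26 microglia and blood cell markers. The same held for 23 of 37 vascular, mural, fibroblast and meningeal markers. The remaining markers of these lists had at least 1 mean above it, so the markers named here do not stand for the whole lists. Cd14 of the microglia and blood cell list, for example, had means of 3.11 in cerebellar NSC and 4.45 in SVZ NSC. Xist, which is transcribed from the inactive X chromosome, read 8.86, 3.59 and 8.04 in cerebellar NSC and 9.73, 3.14 and 7.50 in SVZ NSC, and was low in replicate 2 of both. The Y-linked gene Eif2s3y read 5.48, 6.36 and 5.79 in cerebellar NSC and 1.25, 6.31 and 6.13 in SVZ NSC, so that SVZ replicate 1 had no Y signal and cerebellar replicate 1 had. Replicates 1 and 3 of the cerebellar group and replicate 3 of the SVZ group read high for both genes. The part of these sex-linked readings in the results was not tested beyond the counts that follow.

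The limma test called 201 of 18194 genes (1.10%). In cerebellar NSC 104 of these read higher (0.572%) and 97 lower (0.533%). In all 201 the 3 cerebellar values did not overlap the 3 SVZ values, as was true of 3812 genes (21.0%) in all, and 2498 genes (13.7%) had an unadjusted p under 0.05. At least a 2-fold difference was measured for 64 of the genes called higher and 56 of those called lower, and at least a 4-fold difference for 25 and 19. The lower mean was at or under the guide level for 11 genes called higher and for 24 called lower. In 187 of the 201 genes the IV ventricle mean lay on the cerebellar side of the midpoint between the 2 groups. This was not counted over all genes, and the 201 were selected on the same cerebellar and SVZ values. Between cerebellar and IV ventricle NSC, limma called 0 genes (0.00%), with 559 (3.07%) at an unadjusted p under 0.05. The IV ventricle comparison with SVZ, which shares the SVZ arrays, called 139 (0.764%). Of the 201 genes 120 had several probe sets, which shared 1 sign in 98. Among the genes described here, Six3, Sulf1, Adgrv1, Dio2, Plagl1, Pdlim1, Loxl1, Mycn, Edil3 and Wls had at least 1 further probe set of the other sign.

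**Figure D1:**
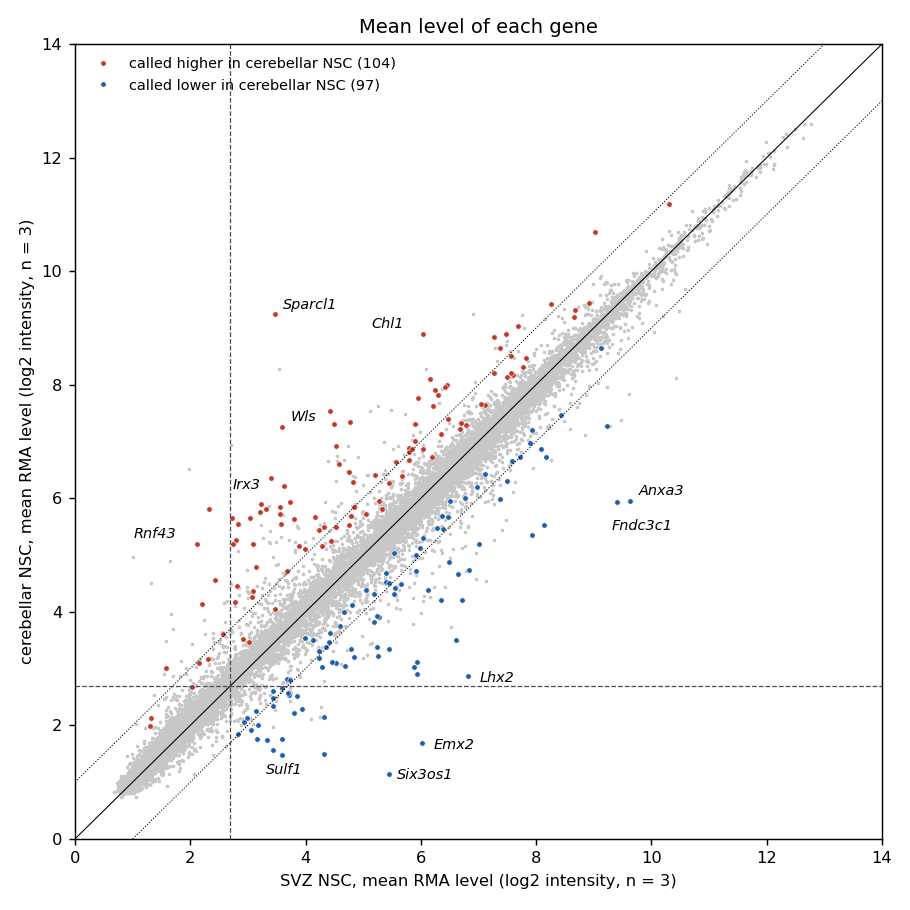
Mean RMA level (log2 intensity, n = 3 arrays) of each of 18194 genes in SVZ NSC (x axis) and cerebellar NSC (y axis), with genes called higher in cerebellar NSC in red and lower in blue. The solid line marks equal means, the dotted lines a 2-fold difference and the dashed lines the background guide of 2.69; most genes lie along the diagonal, and Sparcl1 lies farthest above it among the called genes, at 5.79, while Emx2 and Six3os1 lie below it and under the guide in cerebellar NSC.

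These counts depended on which arrays set the spread. IV ventricle replicate 2 stood apart from the other 2 of its group in midbrain-hindbrain genes, where it read near the cerebellar arrays, while all 9 arrays share 1 estimate of the spread per gene. With only the 6 arrays compared there were 349 calls (181 higher and 168 lower), and 192 of them were among the 201. The sample names end in a mark that cerebellar and SVZ replicates 1 and 2 share with IV ventricle replicate 1, and replicate 3 of each region carries another mark. IV ventricle replicate 2 shares its mark with no other array. A block on the mark therefore fits that array exactly and takes it out of the spread. With the mark as a block there were 728 calls (366 higher and 362 lower), including all 201. Among the 5 arrays of the shared mark 144 were called, 91 of them among the 201. In the mark of replicate 3 each region has 1 array, which allows no test. Leaving out 1 array at a time gave 61 (without SVZ replicate 1), 66 (SVZ replicate 2), 81 (cerebellar replicate 3), 98 (cerebellar replicate 1), 128 (SVZ replicate 3) and 245 calls (cerebellar replicate 2). In these 6 fits 52 genes were called each time, 20 higher and 32 lower, and 29 of the 201 in none. Without replicate 2 of every region 349 genes were called, 130 of them among the 201. Without replicate 1 of every region, an alternative added after the Y-linked genes had been seen, 11 were called with 2 arrays a group: Sparcl1 and Chl1 higher, and Six3os1, Cadps, Fndc3c1, Scrn1, Slc12a7, Vit, Tex15, Rai14 and Adgrv1 lower.

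Of the listed forebrain patterning genes, 6 were called lower in cerebellar NSC and 1 higher. The 6 include the non-coding Six3os1, described further below, and the others encode transcription factors. Emx2, a homeobox gene of the cerebral cortex primordium, read 1.90, 1.80 and 1.36 in cerebellar NSC and 5.91, 6.10 and 6.06 in SVZ NSC. It was lower by at least 3.33 (adjusted p = 0.0013). Lhx2, a LIM homeobox gene that sets cortical identity and the eye field, read 3.49, 2.47 and 2.64 in cerebellar NSC, against 6.95, 7.32 and 6.16 in SVZ NSC (-3.94 ± 0.42, adjusted p = 0.00343), 15.4-fold lower. Six3, a homeobox gene of the anterior forebrain and eye, read 3.17, 2.97 and 2.91 in cerebellar NSC and 5.99, 6.44 and 5.21 in SVZ NSC (-2.86 ± 0.25, adjusted p = 0.0013). All 3 cerebellar values lay well under the lowest SVZ value for each of these genes. Dmrta2, a DM-domain factor of the cortical hem and medial pallium, read 2.30, 2.23 and 1.88 in cerebellar NSC and 4.36, 4.95 and 3.65 in SVZ NSC, lower by at least 1.63 (adjusted p = 0.00646). Gsx1, a homeobox gene of the lateral and medial ganglionic eminences, read 2.98, 2.36 and 2.38 in cerebellar NSC and 3.35, 3.70 and 4.03 in SVZ NSC, lower by at least 1.0 (adjusted p = 0.0376). Sall1, a zinc finger gene of progenitors that was on none of the lists, differed by -0.94 ± 0.11 (adjusted p = 0.00443), with 5.46, 5.28 and 5.60 in cerebellar NSC and 6.35, 6.29 and 6.54 in SVZ NSC.

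Of 41 forebrain patterning factors measured, 6 were called lower (0.533% of all genes were) and 1 higher (0.572% of all genes), with a median difference of -0.092 against 0.026 over all genes. The list counts Six3os1 among its members. The member called higher was Nr2f1, an orphan nuclear receptor of the caudal cortex that is also expressed in the hindbrain, with 8.33, 8.39 and 7.87 in cerebellar NSC and 7.14, 7.13 and 7.54 in SVZ NSC (0.93 ± 0.17, adjusted p = 0.0367). For 22 of the 41, such as the ganglionic eminence genes Dlx1 and Dlx2 and the cortical genes Tbr1 and Fezf2, both group means lay at or under the guide level. Emx1, the paralog of Emx2, read 3.74, 3.68 and 3.67 in cerebellar NSC and 3.48, 3.75 and 3.44 in SVZ NSC (0.14 ± 0.11, adjusted p = 0.618). Otx2, a homeobox gene of the forebrain and midbrain, read 5.07, 4.46 and 4.92 in cerebellar NSC and 4.23, 4.63 and 4.92 in SVZ NSC, while Pax6 read 4.74, 5.35 and 4.59 in cerebellar NSC and 5.18, 5.16 and 5.56 in SVZ NSC, and both overlapped between the groups. Emx2, Lhx2, Six3, Dmrta2 and Sall1 were called in each of the 6 fits that leave out 1 of the arrays compared. Gsx1 kept its call only without cerebellar replicate 1 (adjusted p up to 0.149 otherwise). Nr2f1 kept its call only without cerebellar replicate 3 or SVZ replicate 3 (adjusted p up to 0.16 otherwise). Gsx1 was not called within the shared mark (adjusted p = 0.291). Gsx1 (adjusted p = 0.0602) and Nr2f1 (adjusted p = 0.0608) were not called with the replicate number as a block.

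**Figure D2:**
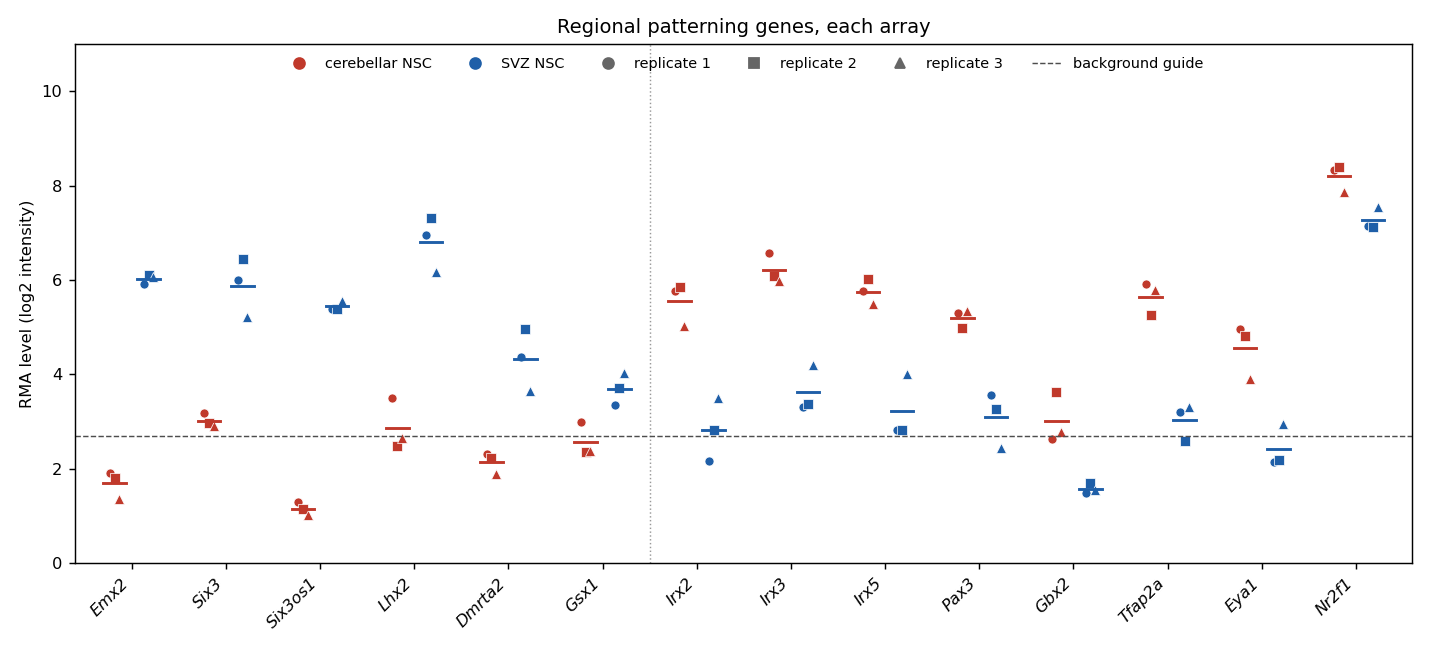
RMA level (log2 intensity, y axis) of 14 regional patterning genes in each of 3 cerebellar NSC arrays (red, left) and 3 SVZ NSC arrays (blue, right), with a bar at each group mean, marker shapes for the replicate number and a dashed line at the background guide of 2.69. The 6 genes left of the dotted line read lower and the 8 to its right higher in cerebellar NSC, and no gene shown overlaps between the groups.

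The Iroquois genes were the clearest of the factors that read higher in cerebellar NSC. These homeobox genes lie in 2 clusters and pattern the midbrain, the hindbrain and the cerebellum. Irx2 read 5.76, 5.84 and 5.03 in cerebellar NSC and 2.16, 2.82 and 3.50 in SVZ NSC (2.71 ± 0.32, adjusted p = 0.00443), and Irx3, whose promoter is printed above, read 6.58, 6.08 and 5.97 in cerebellar NSC and 3.30, 3.37 and 4.20 in SVZ NSC (2.59 ± 0.25, adjusted p = 0.00183). Irx5 read 5.76, 6.01 and 5.49 in cerebellar NSC and 2.82, 2.81 and 4.0 in SVZ NSC (2.54 ± 0.37, adjusted p = 0.0129). Each was about 6-fold higher, at 6.56-fold, 6.02-fold and 5.84-fold, and SVZ replicate 3 was the highest of its group in all 3. Irx1 read 4.76, 5.47 and 4.23 in cerebellar NSC and 2.81, 3.71 and 3.95 in SVZ NSC and did not pass the test (1.33 ± 0.35, adjusted p = 0.128), and Irx4 and Irx6 read under the guide level in both groups. Of the 6 family members 3 were higher, against 0.572% of all genes, and 0 lower. Like other families here, this one was grouped after values had been seen, so the share is a description only.

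Further factors of the midbrain, hindbrain and dorsal neural tube were higher. Pax3, a paired-box gene of dorsal progenitors and the neural crest, read 5.29, 4.97 and 5.34 in cerebellar NSC and 3.56, 3.26 and 2.44 in SVZ NSC (2.11 ± 0.36, adjusted p = 0.0267). Tfap2a, an AP-2 factor of the neural crest and of the cerebellar interneuron lineage, read 5.91, 5.25 and 5.78 in cerebellar NSC and 3.19, 2.59 and 3.30 in SVZ NSC (2.62 ± 0.38, adjusted p = 0.0136). Gbx2, which is needed for the anterior hindbrain and positions the boundary with the midbrain, read 2.62, 3.63 and 2.77 in cerebellar NSC and 1.49, 1.69 and 1.55 in SVZ NSC, higher by at least 0.32 (adjusted p = 0.0305), so that only cerebellar replicate 2 lay well above the guide level. Outside the lists, Eya1, a coactivator and phosphatase of eye, ear and kidney development, was higher by at least 1.87 (adjusted p = 0.0304). Hlx, a homeobox gene best known from gut and blood development, differed by 1.85 ± 0.34 (adjusted p = 0.0382), and Zbtb16 by 0.98 ± 0.18 (adjusted p = 0.0411). Zfp521 and Zfp503 differed by 0.55 ± 0.09 (adjusted p = 0.0299) and 0.67 ± 0.10 (adjusted p = 0.0136).

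Of 45 midbrain-hindbrain and cerebellar patterning factors measured, 5 were called higher (Irx2, Irx3, Irx5, Pax3 and Gbx2) and 0 lower, against 0.572% and 0.533% of all genes, with a median difference of 0.073, and 26 had both means at or under the guide level. Pax7 and the cerebellar lineage genes Atoh1 and Ptf1a were among these 26. The Zic genes, which mark dorsal neural tube and cerebellar granule cell progenitors, did not follow the others: all 4 measured had differences below 0, of which Zic1 (-1.06 ± 0.85, adjusted p = 0.634) and Zic5 (-1.68 ± 0.54, adjusted p = 0.208) were the widest, and none was called. Of 25 Hox genes, which mark the hindbrain behind the cerebellum and the spinal cord, 0 were called by limma, 19 had differences above 0 and 17 had both means at or under the guide level. Their count at an unadjusted p under 0.05 was 2, where 13.7% of all genes had such a p. Differences above 0 were found for 10004 of all 18194 genes. Hoxa3 read 3.24, 3.22 and 2.62 in cerebellar NSC, 4.55, 2.79 and 4.75 in IV ventricle NSC and 1.81, 1.86 and 2.60 in SVZ NSC. Irx2 and Irx3 were called in each of the 6 fits that leave out 1 of the arrays compared. Irx5 lost its call without cerebellar replicate 1, or SVZ replicate 1 or 2 (adjusted p up to 0.0714). Pax3 and Zfp521 kept their call only without cerebellar replicate 2 (adjusted p up to 0.138 otherwise). Tfap2a and Zfp503 kept their call only without cerebellar replicate 2 or SVZ replicate 3 (adjusted p up to 0.0773 otherwise). Gbx2 kept its call only without cerebellar replicate 1 or 2 (adjusted p up to 0.134 otherwise). Eya1 kept its call only without cerebellar replicate 3 or SVZ replicate 3 (adjusted p up to 0.138 otherwise). Hlx kept its call only without cerebellar replicate 3 (adjusted p up to 0.14 otherwise). Zbtb16 kept its call only without cerebellar replicate 1 (adjusted p up to 0.158 otherwise). Gbx2, Zbtb16, Zfp521 and Zfp503 were not called within the shared mark (adjusted p 0.0778 to 0.16). Hlx (adjusted p = 0.0559) and Zbtb16 (adjusted p = 0.062) were not called with the replicate number as a block.

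Several non-coding transcripts that lie beside patterning genes were called as well. Of the 201 called genes 190 are annotated as protein coding (101 higher and 89 lower), 9 as long non-coding RNA (3 higher and 6 lower) and 1 as antisense RNA (lower). Six3os1, transcribed opposite to Six3, read 1.30, 1.15 and 1.01 in cerebellar NSC and 5.38, 5.38 and 5.55 in SVZ NSC. It was lower by at least 2.75 with the smallest adjusted p of the comparison (7.41e-08), and its SVZ values lay closer together than those of Six3. Emx2os, which starts inside the Emx2 window printed above and runs the other way, read 1.93, 1.68 and 2.14 in cerebellar NSC and 3.03, 3.23 and 2.89 in SVZ NSC, lower by at least 0.36 (adjusted p = 0.00892). How much of each reading belongs to its own strand, where 2 transcripts overlap on opposite strands, was not tested.

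Sox2ot, whose gene spans Sox2 on the same strand, read 3.89, 3.69 and 2.94 in cerebellar NSC and 6.40, 6.60 and 6.79 in SVZ NSC (-3.09 ± 0.40, adjusted p = 0.0073), while the difference of Sox2 itself was 0.02 (adjusted p = 0.959). In the other direction Crnde, which lies next to Irx5 and whose promoter is printed above, read 4.50, 4.29 and 4.32 in cerebellar NSC and 2.76, 2.86 and 3.61 in SVZ NSC (1.29 ± 0.20, adjusted p = 0.0191). Gm26688, which overlaps Tfap2a, was also called higher, but both of its group means lay under the guide level. Both members of a pair were called in the same direction at Six3, Emx2, Irx5 and, with that limit, Tfap2a, while Sox2 was not called. Six3os1 and Sox2ot were called in each of the 6 fits that leave out 1 of the arrays compared. Emx2os lost its call without SVZ replicate 1 or 2 (adjusted p up to 0.0519). Crnde and Gm26688 kept their call only without cerebellar replicate 2 or SVZ replicate 3 (adjusted p up to 0.127 otherwise). Gm26688 was not called within the shared mark (adjusted p = 0.0769).

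The genes that set the midbrain-hindbrain boundary region apart were called or not according to the arrays in the fit. En1, an engrailed homeobox gene of this region, read 5.40, 4.14 and 5.38 in cerebellar NSC, 0.83, 5.58 and 2.49 in IV ventricle NSC and 1.04, 0.96 and 1.03 in SVZ NSC. It was higher by at least 2.28, with an adjusted p of 0.0952 in the 9-array fit and 0.00136 with only the 6 arrays compared. En2, the other engrailed gene, read 7.57, 7.52 and 7.53 in cerebellar NSC, 4.50, 7.67 and 5.72 in IV ventricle NSC and 4.74, 4.99 and 5.59 in SVZ NSC (2.44, adjusted p = 0.12 with 9 arrays and 0.00182 with 6). Cnpy1, the neighbour of En2 and a partner of FGF receptors in zebrafish, was called with 6 arrays only (2.49, adjusted p = 0.136 with 9 arrays and 0.00715 with 6). In all 3 genes IV ventricle replicate 2 read like the cerebellar arrays and its replicate 1 like the SVZ arrays or below.

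The same IV ventricle array stood apart in other wide differences called with 6 arrays and not with 9. Efna5, a membrane-anchored ephrin that repels growing axons, read 8.94, 7.19 and 8.67 in cerebellar NSC, 3.03, 9.50 and 3.46 in IV ventricle NSC and 3.58, 3.52 and 3.51 in SVZ NSC (4.73, adjusted p = 0.174 with 9 arrays and 0.00186 with 6). Mab21l1 was higher by at least 1.82 (adjusted p = 0.126 with 9 arrays and 0.0098 with 6). Hmcn1, the extracellular protein hemicentin, was higher by at least 3.83 (adjusted p = 0.0513 with 9 arrays and 0.00322 with 6). In the other direction Nr2e1, the nuclear receptor Tlx that maintains stem cells of the adult forebrain, read 4.68, 2.70 and 3.82 in cerebellar NSC, 1.19, 4.69 and 1.21 in IV ventricle NSC and 6.86, 6.61 and 6.10 in SVZ NSC (-2.79, adjusted p = 0.189 with 9 arrays and 0.0231 with 6). Cdh11, a cadherin of mesenchyme and forebrain, read lower in the 6-array fit (-2.59, adjusted p = 0.306 with 9 arrays and 0.048 with 6). The semaphorin gene Sema5a (-2.38, adjusted p = 0.259 with 9 arrays and 0.0439 with 6) and the collagen gene Col26a1 (-2.07, adjusted p = 0.126 with 9 arrays and 4.55e-04 with 6) did likewise. Of the 349 calls of the 6-array fit 157 were not called with 9 arrays.

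**Figure D3:**
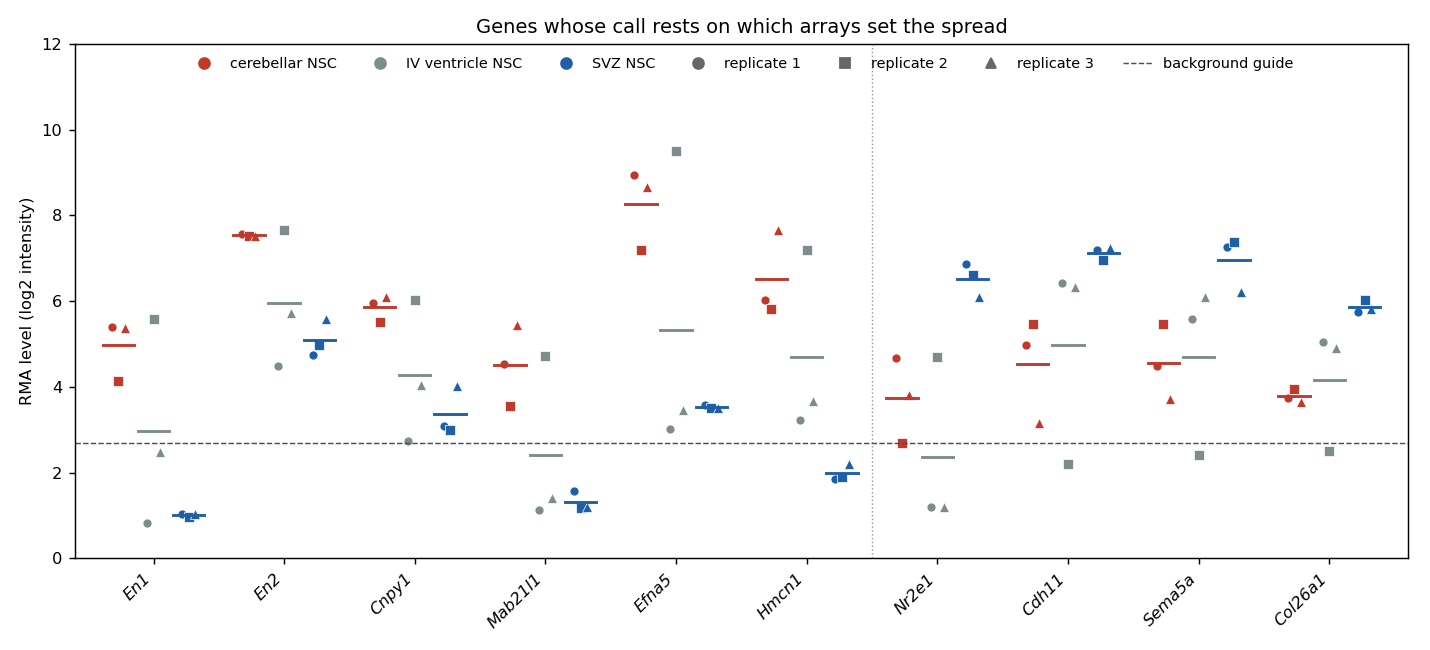
RMA level (log2 intensity, y axis) of 10 genes called with the 6 arrays compared but not in the 9-array fit, in each cerebellar NSC (red, left), IV ventricle NSC (grey, middle) and SVZ NSC array (blue, right), with a bar at each group mean and a dashed line at the background guide of 2.69. IV ventricle replicate 2 (grey square) lies apart from the other 2 grey points in every gene, and the cerebellar and SVZ points do not overlap.

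Calls among Wnt genes fell on secretion, receptors and antagonists, and no Wnt ligand was called. Wnt proteins are carried to the cell surface by Wls, bind Frizzled receptors with Lrp co-receptors, and are held in check by ubiquitin ligases that remove the receptors and by secreted antagonists. Wls read 7.24, 6.72 and 7.81 in cerebellar NSC and 2.47, 3.15 and 5.15 in SVZ NSC (3.67 ± 0.57, adjusted p = 0.0187), and SVZ replicate 3 lay between the other SVZ arrays and the cerebellar ones. Rnf43, one of these ligases, read 5.41, 5.46 and 4.75 in cerebellar NSC and 1.92, 2.06 and 2.39 in SVZ NSC, higher by at least 2.51 (adjusted p = 0.00178). Its paralog Znrf3 read 5.95, 6.26 and 5.97 in cerebellar NSC and 6.47, 6.46 and 6.63 in SVZ NSC, below rather than above SVZ, and did not pass the test (-0.46 ± 0.13, adjusted p = 0.152). Fzd9 was the only 1 of 10 Frizzled genes called, with 8.47, 8.57 and 8.46 in cerebellar NSC and 7.49, 7.71 and 7.50 in SVZ NSC (0.93 ± 0.10, adjusted p = 0.00378), and 8 of the 10 had differences below 0.

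Of the secreted antagonists, Sostdc1, which binds both Wnt co-receptors and BMP ligands, read 4.66, 5.55 and 5.39 in cerebellar NSC and 2.12, 2.98 and 3.13 in SVZ NSC (2.46 ± 0.38, adjusted p = 0.0183). Draxin, a guidance protein that also blocks Wnt co-receptors, read 5.11, 5.09 and 5.09 in cerebellar NSC and 3.68, 3.97 and 4.32 in SVZ NSC (1.11 ± 0.15, adjusted p = 0.00913). In counts, 1 of 25 ligand and secretion genes, 2 of 27 membrane receptors and regulators and 2 of 14 antagonists were higher and 0 of each lower, against 0.572% higher over all genes, and 15 of the 25 ligand and secretion genes had both means at or under the guide level. Wnt5a read 5.60, 6.59 and 6.60 in cerebellar NSC and 6.52, 6.76 and 5.98 in SVZ NSC, and Wnt7b 7.20, 7.35 and 6.83 in cerebellar NSC and 7.63, 7.41 and 7.68 in SVZ NSC (-0.45 ± 0.17, adjusted p = 0.304). Of 14 feedback and target genes 0 were called by limma with 9 arrays, and 2 had an unadjusted p under 0.05 (13.7% of all genes did). Axin2, the most used readout of the pathway, read 6.82, 6.78 and 6.32 in cerebellar NSC and 6.05, 6.05 and 5.76 in SVZ NSC without overlap (0.69 ± 0.17, adjusted p = 0.113, and 0.0281 with the replicate number as a block). Outside the lists, the corepressor Tle2 was higher (1.0 ± 0.15, adjusted p = 0.0161), while Apc, the scaffold that destabilizes beta-catenin (-0.48 ± 0.09, adjusted p = 0.0446), and Ndp, a Frizzled4 ligand that is not a Wnt (-1.14 ± 0.22, adjusted p = 0.0454), were lower. Rnf43 and Fzd9 were called in each of the 6 fits that leave out 1 of the arrays compared. Wls kept its call only without cerebellar replicate 2 or SVZ replicate 3 (adjusted p up to 0.0957 otherwise). Sostdc1 lost its call without cerebellar replicate 3, or SVZ replicate 1 or 2 (adjusted p up to 0.0844). Draxin lost its call without SVZ replicate 2 (adjusted p = 0.055). Tle2 lost its call without SVZ replicate 1, 2 or 3 (adjusted p up to 0.0769). Apc and Ndp lost their calls whichever of the 6 arrays was left out (adjusted p up to 0.177). Fzd9, Sostdc1, Tle2 and Apc were not called within the shared mark (adjusted p 0.0597 to 0.215). Apc (adjusted p = 0.0526) was not called with the replicate number as a block.

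A gene of the extracellular matrix had the widest difference of all calls. Sparcl1, a secreted glycoprotein of astrocytes that promotes synapse formation, read 9.92, 8.19 and 9.62 in cerebellar NSC and 4.02, 3.02 and 3.34 in SVZ NSC (5.79 ± 0.47, adjusted p = 0.00106), 55.2-fold higher. Close relatives were higher too. Sparc read 9.25, 8.34 and 9.09 in cerebellar NSC and 7.66, 7.42 and 7.37 in SVZ NSC (1.41 ± 0.28, adjusted p = 0.0479). Smoc1, a matrix protein that modulates BMP signals, differed by 1.16 ± 0.15 (adjusted p = 0.0073), and Spock2, a proteoglycan of the brain matrix, by 1.72 ± 0.30 (adjusted p = 0.0297). Of the 8 SPARC family genes measured these 4 were higher, against 0.572% of all genes. The family was grouped after values had been seen. Smoc2, Spock1 and Spock3 read under the guide level in both groups, and Fstl1 read below SVZ (-0.90, adjusted p = 0.065 with 9 arrays and 0.0169 with 6).

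Several further matrix proteins were higher. Fndc1, a fibronectin domain protein, read 7.08, 7.04 and 7.92 in cerebellar NSC and 4.79, 4.71 and 4.81 in SVZ NSC (2.57 ± 0.23, adjusted p = 0.0013), and Adamtsl3, a matrix protein related to the ADAMTS proteases, read 5.90, 5.42 and 6.38 in cerebellar NSC and 3.06, 3.25 and 3.37 in SVZ NSC (2.67 ± 0.31, adjusted p = 0.0041). Matn2, a matrilin, differed by 2.16 ± 0.33 (adjusted p = 0.0165), the floor plate protein Spon1 by 1.42 ± 0.22 (adjusted p = 0.0196) and Edil3, an integrin ligand, by 1.64 ± 0.22 (adjusted p = 0.00913). The large proteoglycan Vcan read 7.74, 7.10 and 8.06 in cerebellar NSC and 4.85, 4.88 and 6.04 in SVZ NSC and missed the threshold in the 9-array fit (2.38, adjusted p = 0.0523 with 9 arrays and 0.0174 with 6).

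Other genes of the matrix and its sugars were called lower. Sulf1, an enzyme that removes sulfate groups from heparan sulfate outside the cell, read 1.42, 1.61 and 1.45 in cerebellar NSC and 4.10, 4.70 and 4.12 in SVZ NSC, lower by at least 1.62 (adjusted p = 6.71e-04). Its paralog Sulf2 read 10.08, 9.78 and 10.23 in cerebellar NSC and 10.41, 10.09 and 10.29 in SVZ NSC (-0.23 ± 0.17, adjusted p = 0.601). Of 15 enzymes of heparan sulfate sulfation, Hs6st2 was higher (2.97 ± 0.53, adjusted p = 0.032) and Hs2st1 (-0.72 ± 0.11, adjusted p = 0.0202) was lower beside Sulf1. These enzymes were grouped after values had been seen, and 0.572% of all genes were called higher and 0.533% lower. Efemp1, a fibulin of elastic fibres, was lower by at least 0.74 (adjusted p = 0.0299), Vit, the protein vitrin, by at least 0.90 (adjusted p = 0.0173) and Loxl1, an enzyme that crosslinks elastin, by at least 0.49 (adjusted p = 0.0105). Mfap2, a protein of elastin-associated microfibrils, differed by -0.81 ± 0.13 (adjusted p = 0.0201), and the fibrillar collagen gene Col5a2 by -1.39 ± 0.26 (adjusted p = 0.0411). Of the 100 genes of the matrix list 6 were higher and 3 lower (0.572% and 0.533% of all genes), with 10 and 7 in the 6-array fit (0.995% and 0.923%). The list holds Sparcl1, Sparc, Smoc1, Spock2, Fndc1, Matn2, Sulf1, Efemp1 and Loxl1, and the other called matrix genes named here are not on it. For the list the median difference was 0.061. Bcan, a proteoglycan of neural progenitors and glia, did not pass the test (-0.01 ± 0.15, adjusted p = 0.985). Sparcl1, Fndc1, Adamtsl3 and Sulf1 were called in each of the 6 fits that leave out 1 of the arrays compared. Sparc, Spock2, Matn2, Hs6st2, Mfap2 and Col5a2 kept their call only without cerebellar replicate 2 (adjusted p up to 0.187 otherwise). Smoc1 lost its call without SVZ replicate 1 (adjusted p = 0.0507). Spon1 kept its call only without cerebellar replicate 2 or SVZ replicate 3 (adjusted p up to 0.102 otherwise). Edil3 and Loxl1 lost their calls without SVZ replicate 1 or 2 (adjusted p up to 0.0574). Hs2st1 kept its call only without cerebellar replicate 2 or 3 (adjusted p up to 0.109 otherwise). Efemp1 kept its call only without SVZ replicate 3 (adjusted p up to 0.134 otherwise). Vit lost its call without cerebellar replicate 1 or 3, or SVZ replicate 2 (adjusted p up to 0.0939). Sparc, Smoc1, Hs2st1, Vit, Mfap2 and Col5a2 were not called within the shared mark (adjusted p 0.0641 to 0.205). Sparc (adjusted p = 0.0635) and Col5a2 (adjusted p = 0.0549) were not called with the replicate number as a block.

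Armh4, a membrane protein, stood among the 15 widest rises of the called genes as well. It read 7.19, 7.21 and 7.52 in cerebellar NSC and 4.09, 4.37 and 5.0 in SVZ NSC (2.82 ± 0.29, adjusted p = 0.00289) and was called in each of the 6 leave-outs.

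**Figure D4:**
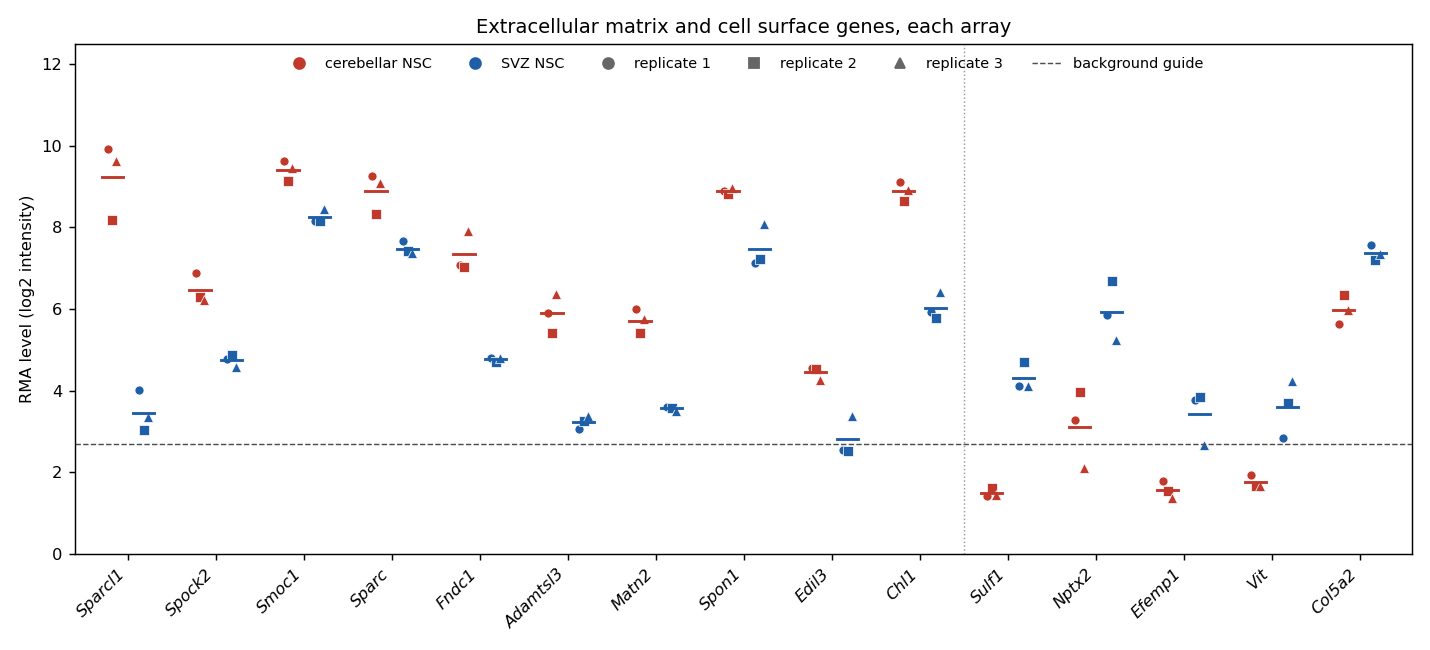
RMA level (log2 intensity, y axis) of 15 matrix and cell surface genes in each of 3 cerebellar NSC arrays (red, left) and 3 SVZ NSC arrays (blue, right), with a bar at each group mean, marker shapes for the replicate number and a dashed line at the background guide of 2.69. Sparcl1 shows the widest gap, and Sulf1, Efemp1 and Vit lie under the guide in cerebellar NSC.

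Among molecules of the cell surface, Chl1, an adhesion molecule of the L1 family, read 9.12, 8.65 and 8.93 in cerebellar NSC and 5.93, 5.77 and 6.41 in SVZ NSC (2.86 ± 0.17, adjusted p = 1.24e-04), 7.28-fold higher. The other 3 family members did not pass the test, with differences of -0.08 for Nfasc, -0.04 for Nrcam and at least 0.28 for L1cam. Sdk2, a sidekick adhesion protein that matches synaptic layers in the retina, read 4.42, 3.98 and 4.22 in cerebellar NSC and 6.65, 6.56 and 5.85 in SVZ NSC (-2.15 ± 0.24, adjusted p = 0.00362), and its paralog Sdk1 differed by -0.04 ± 0.14 (adjusted p = 0.938). The receptor tyrosine phosphatases Ptprd (1.47 ± 0.27, adjusted p = 0.0382) and Ptprk (1.20 ± 0.18, adjusted p = 0.0151) were higher and Ptprm (-0.68 ± 0.11, adjusted p = 0.0203) lower. Ank3, which ties membrane proteins to the spectrin skeleton, read 7.81, 7.18 and 7.89 in cerebellar NSC and 6.50, 5.94 and 6.19 in SVZ NSC (1.42 ± 0.20, adjusted p = 0.0105). Over all genes 0.572% were called higher and 0.533% lower, and 13.7% had an unadjusted p under 0.05. The list counts that follow stand beside these shares, and lists this short can hold 0 calls at such shares. Of 48 adhesion molecules of the immunoglobulin type 1 was higher, Chl1. Of 36 cadherins, 21 ephrins and Eph receptors and 19 integrins 0 were called with limma on 9 arrays (8, 5 and 4 at an unadjusted p under 0.05), and of 51 semaphorin, slit and netrin genes only Rgmb (0.81 ± 0.14, adjusted p = 0.0302), a BMP co-receptor and neogenin ligand, was higher. Chl1 and Sdk2 were called in each of the 6 fits that leave out 1 of the arrays compared. Ptprd kept its call only without SVZ replicate 3 (adjusted p up to 0.158 otherwise). Ptprk lost its call without SVZ replicate 1, 2 or 3 (adjusted p up to 0.0751). Ptprm and Rgmb kept their call only without cerebellar replicate 2 (adjusted p up to 0.138 otherwise). Ank3 lost its call without SVZ replicate 2 (adjusted p = 0.0572). Ptprk, Ptprm, Ank3 and Rgmb were not called within the shared mark (adjusted p 0.0674 to 0.159).

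Several genes outside the patterning and matrix lists had wide differences below 0, and they are given singly. Anxa3, a calcium-dependent membrane-binding annexin, read 6.48, 6.60 and 4.77 in cerebellar NSC and 9.37, 9.93 and 9.60 in SVZ NSC (-3.68 ± 0.46, adjusted p = 0.00642), 12.8-fold lower, with cerebellar replicate 3 the lowest. Fndc3c1, an X-linked gene with fibronectin domains, read 5.71, 5.91 and 6.18 in cerebellar NSC and 9.27, 9.48 and 9.44 in SVZ NSC (-3.46 ± 0.19, adjusted p = 8.74e-05). Cadps, which primes dense-core vesicles for release, read 3.77, 2.85 and 2.11 in cerebellar NSC and 5.88, 5.97 and 5.96 in SVZ NSC (-3.03 ± 0.34, adjusted p = 0.00396). Nptx2, a secreted pentraxin that clusters AMPA receptors, read 3.28, 3.96 and 2.11 in cerebellar NSC and 5.85, 6.69 and 5.23 in SVZ NSC (-2.81 ± 0.51, adjusted p = 0.0346). Nrn1, the neurite-promoting protein neuritin, read 6.08, 4.48 and 5.51 in cerebellar NSC and 8.08, 7.88 and 7.79 in SVZ NSC (-2.56 ± 0.32, adjusted p = 0.00646). Pcp4l1 differed by -2.50 ± 0.44 (adjusted p = 0.0315) and Epb41l4a, a band 4.1 protein, by -2.61 ± 0.30 (adjusted p = 0.00396). Slc12a7, a potassium-chloride cotransporter, read 3.49, 3.15 and 3.03 in cerebellar NSC and 5.26, 5.30 and 5.18 in SVZ NSC (-2.02 ± 0.20, adjusted p = 0.00183), a narrow spread in both.

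In 4 families formed from called genes after values had been seen, most members did not pass the test, and their called members are given here against 0.533% called lower over all genes. Adgrv1, a very large adhesion receptor of hair cells and photoreceptors, read 3.63, 3.30 and 3.21 in cerebellar NSC and 5.16, 5.27 and 5.27 in SVZ NSC (-1.85 ± 0.15, adjusted p = 0.00106), and Adgrg6, a receptor needed for myelination by Schwann cells, read 5.37, 5.60 and 4.60 in cerebellar NSC and 6.95, 7.01 and 7.05 in SVZ NSC (-1.81 ± 0.31, adjusted p = 0.0279). These were 2 of 22 adhesion receptors measured, whose median difference was -0.06. Rgs4, which shortens G protein signals, was lower by at least 1.11 (adjusted p = 0.0136) and Rgs3 differed by -0.76 ± 0.10 (adjusted p = 0.00646), 2 of 19 Rgs genes (median -0.06). Of 6 genes with PDZ and LIM domains, which bind actin filaments, Pdlim4 (-1.96 ± 0.26, adjusted p = 0.00796) and Pdlim1 (-1.18 ± 0.13, adjusted p = 0.00343) were lower. Among 23 ceramide and sphingomyelin enzymes, Cers6, a ceramide synthase (-1.37 ± 0.23, adjusted p = 0.0251), and Sgms2, a sphingomyelin synthase (by at least 1.16, adjusted p = 0.00396), were lower, while the ceramidase gene Acer3 was higher (0.88 ± 0.13, adjusted p = 0.017). Adgrv1, Rgs3, Pdlim4, Pdlim1 and Sgms2 were called in each of the 6 fits that leave out 1 of the arrays compared. Adgrg6 and Acer3 kept their call only without cerebellar replicate 2 (adjusted p up to 0.119 otherwise). Rgs4 lost its call without cerebellar replicate 3 or SVZ replicate 1 (adjusted p up to 0.0678). Cers6 kept its call only without cerebellar replicate 1 (adjusted p up to 0.123 otherwise). Rgs4, Rgs3, Cers6 and Acer3 were not called within the shared mark (adjusted p 0.0583 to 0.0726). Adgrg6 (adjusted p = 0.05) was not called with the replicate number as a block.

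Lin7a, Gabra2 and Clic5 were among the called genes with the widest differences above 0. Lin7a, a scaffold of synaptic and junctional complexes, read 5.90, 4.86 and 6.68 in cerebellar NSC and 2.13, 1.88 and 2.97 in SVZ NSC, higher by at least 3.12 (adjusted p = 0.0446). Gabra2, an alpha subunit of the GABA-A receptor, read 4.87, 4.83 and 7.25 in cerebellar NSC and 2.82, 2.67 and 2.68 in SVZ NSC (2.93 ± 0.56, adjusted p = 0.044), and cerebellar replicate 3 lay far above the other arrays of its group. Clic5, an intracellular chloride channel protein, read 7.09, 6.66 and 8.84 in cerebellar NSC and 4.42, 4.10 and 4.75 in SVZ NSC (3.10 ± 0.56, adjusted p = 0.0335), again highest in cerebellar replicate 3. Of 35 glutamate, GABA and glycine receptor genes Gabra2 was higher and Gria2, an AMPA receptor subunit, lower (-0.96 ± 0.15, adjusted p = 0.0192). Of 51 potassium, sodium and calcium channel genes 0 were called with limma on 9 arrays (12 at an unadjusted p under 0.05). Among all genes 0.572% were called higher and 0.533% lower, and 13.7% had an unadjusted p under 0.05. Among receptors of peptides, Prokr1, the prokineticin receptor, read 6.0, 5.23 and 6.32 in cerebellar NSC and 3.87, 3.30 and 3.47 in SVZ NSC (2.31 ± 0.29, adjusted p = 0.00646), and Calcrl, which forms receptors for CGRP and adrenomedullin, differed by 1.54 ± 0.23 (adjusted p = 0.0167). Anxa3, Fndc3c1, Cadps, Nrn1, Epb41l4a, Slc12a7 and Prokr1 were called in each of the 6 fits that leave out 1 of the arrays compared. Nptx2 kept its call only without cerebellar replicate 2 or SVZ replicate 3 (adjusted p up to 0.14 otherwise). Pcp4l1, Lin7a and Clic5 kept their call only without cerebellar replicate 2 (adjusted p up to 0.173 otherwise). Gabra2 kept its call only without cerebellar replicate 2 or 3 (adjusted p up to 0.158 otherwise). Gria2 lost its call without cerebellar replicate 3, or SVZ replicate 1 or 3 (adjusted p up to 0.0975). Calcrl lost its call without cerebellar replicate 3, or SVZ replicate 1 or 2 (adjusted p up to 0.0733). Nrn1, Pcp4l1, Gria2, Prokr1 and Calcrl were not called within the shared mark (adjusted p 0.0685 to 0.185). Lin7a (adjusted p = 0.075) and Gabra2 (adjusted p = 0.0597) were not called with the replicate number as a block.

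Calls among growth factor genes were few, and a share of 1 in 50 is near the 1.10% called over all genes. Fgf12, an FGF homologous factor that acts inside the cell on sodium channels, read 6.28, 5.40 and 5.77 in cerebellar NSC and 2.52, 3.50 and 3.94 in SVZ NSC (2.50 ± 0.37, adjusted p = 0.0142) and was the only 1 of 50 FGF and EGF genes called. Its relative Fgf13 differed by -0.41 ± 0.59 (adjusted p = 0.809). Igfbp4, a secreted protein that binds insulin-like growth factors, read 10.91, 10.18 and 10.94 in cerebellar NSC and 9.11, 8.93 and 9.03 in SVZ NSC (1.65 ± 0.24, adjusted p = 0.0129), and their receptor Igf1r read 7.55, 7.08 and 7.57 in cerebellar NSC and 6.43, 6.50 and 6.49 in SVZ NSC (0.93 ± 0.13, adjusted p = 0.0124). These were the 2 of 16 IGF and insulin genes called. Fgf12 lost its call without cerebellar replicate 1 or 3, or SVZ replicate 2 (adjusted p up to 0.0641). Igfbp4 and Igf1r kept their call only without cerebellar replicate 2 or SVZ replicate 3 (adjusted p up to 0.0726 otherwise). Fgf12, Igfbp4 and Igf1r were not called within the shared mark (adjusted p 0.0598 to 0.156).

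In the Notch pathway Mfng, which adds sugars to Notch receptors and so changes their response to ligands, read 4.83, 4.80 and 4.48 in cerebellar NSC and 5.85, 6.01 and 5.87 in SVZ NSC (-1.20 ± 0.15, adjusted p = 0.00599). It was the only 1 of 28 pathway genes called, and its relatives Lfng (-0.14 ± 0.22, adjusted p = 0.823) and Rfng (adjusted p = 0.993) did not pass the test. Among all genes 1.10% were called and 0.533% were called lower. A single call in this list, or in the lists that follow, is therefore not read as a result about the pathway. The Notch target Hes5 read 6.27, 6.24 and 3.81 in cerebellar NSC and 7.11, 6.97 and 8.14 in SVZ NSC, a wide difference with a wide error (-1.97 ± 0.91, adjusted p = 0.386), and cerebellar replicate 3 lay far below the others. Among 40 BMP, TGF-beta and Id genes only Id4, an inhibitor of basic helix-loop-helix factors, was lower (-0.63 ± 0.12, adjusted p = 0.035). Bmper, a secreted BMP regulator outside the list, was lower too, with 4.04, 4.28 and 4.64 in cerebellar NSC and 5.40, 5.46 and 5.77 in SVZ NSC (-1.22 ± 0.19, adjusted p = 0.0187). Of 23 hedgehog genes, a list that includes the target Mycn, that gene was lower by at least 0.90 (adjusted p = 0.0196). Ptch1, the hedgehog receptor and target, differed by 0.15 ± 0.16 (adjusted p = 0.741), Gli1 read under the guide level in both groups, and Gli2 read 4.17, 5.08 and 3.30 in cerebellar NSC and 5.91, 6.18 and 6.04 in SVZ NSC (-1.86 ± 0.44, adjusted p = 0.0935). Plagl1, an imprinted zinc finger gene that restrains growth, read 6.83, 6.97 and 6.38 in cerebellar NSC and 8.01, 8.34 and 8.14 in SVZ NSC (-1.44 ± 0.15, adjusted p = 0.00343) and was the only 1 of 32 imprinted genes called. Mfng and Plagl1 were called in each of the 6 fits that leave out 1 of the arrays compared. Id4 lost its call whichever of the 6 arrays was left out (adjusted p up to 0.133). Bmper kept its call only without cerebellar replicate 2 or 3 (adjusted p up to 0.0747 otherwise). Mycn lost its call without SVZ replicate 1, 2 or 3 (adjusted p up to 0.105). Id4 and Mycn were not called within the shared mark (adjusted p 0.0769 to 0.19).

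Astrocyte markers mostly had differences below 0, and 2 of 52 were called lower, against 0.533% over all genes. Of 52 astrocyte markers 39 had differences below 0 (7783 of 18194 over all genes were), the median was -0.448, and only Dio2, which activates thyroid hormone (-1.63 ± 0.26, adjusted p = 0.0194), and Slc7a11, the cystine transporter (lower by at least 0.14, adjusted p = 0.0142), were called. Their summed intensity was 13304, 10108 and 7291 in cerebellar NSC and 17311, 14176 and 15488 in SVZ NSC, without overlap. Gfap, the astrocyte filament, read 2.92, 2.53 and 2.90 in cerebellar NSC and 5.59, 4.14 and 3.22 in SVZ NSC (-1.53 ± 0.51, adjusted p = 0.227). The gap junction gene Gja1 read 8.51, 8.04 and 6.95 in cerebellar NSC and 9.91, 9.44 and 9.49 in SVZ NSC (-1.78 ± 0.48, adjusted p = 0.136), and Mt3, a brain metallothionein, 8.81, 8.95 and 6.59 in cerebellar NSC and 10.73, 10.83 and 9.73 in SVZ NSC (-2.31 ± 0.91, adjusted p = 0.308), each lowest in cerebellar replicate 3. Sparcl1, itself an astrocyte gene in the mature brain, was higher, as given above. The part of the astrocyte markers in the results was not tested.

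Of 36 neural stem and radial glial markers 1 was higher and 1 lower. Among all genes 0.572% were called higher and 0.533% lower, and 13.7% had an unadjusted p under 0.05. The marker counts that follow stand beside these shares, and a single call is not read as a result about a cell type. The higher was Thrsp, a regulator of lipid synthesis in quiescent neural stem cells. Thrsp read 8.08, 7.49 and 8.74 in cerebellar NSC and 6.23, 6.16 and 6.05 in SVZ NSC (1.96 ± 0.25, adjusted p = 0.00646). The lower was Id4 (-0.63 ± 0.12, adjusted p = 0.035), given above with the BMP and Id genes. Of 35 oligodendrocyte lineage markers Bcas1, a gene of early myelinating cells, read 8.80, 8.59 and 9.14 in cerebellar NSC and 6.70, 7.11 and 7.99 in SVZ NSC (1.57 ± 0.31, adjusted p = 0.0454) and was the only call, while Olig2, Pdgfra and Mbp did not pass the test (0.20, -0.88 and -0.04). Their summed intensity was 9327, 9560 and 9902 in cerebellar NSC and 8222, 7969 and 8794 in SVZ NSC. Of 55 neuronal markers only Gria2 was called, and the immature neuron gene Dcx read 5.08, 4.54 and 4.91 in cerebellar NSC and 2.58, 3.39 and 4.60 in SVZ NSC (1.32 ± 0.50, adjusted p = 0.295). Neuronal markers summed to 3990, 3734 and 4340 in cerebellar NSC and 3240, 3367 and 3728 in SVZ NSC. The only call among 26 microglia and blood cell markers was Cd14, a receptor for bacterial lipopolysaccharide, which read 3.0, 3.40 and 2.93 in cerebellar NSC and 4.68, 4.43 and 4.25 in SVZ NSC (-1.34 ± 0.15, adjusted p = 0.0035). For 17 of these 26 markers both means lay at or under the guide level, and their summed intensities overlapped, at 140 to 147 in cerebellar NSC and 140 to 160 in SVZ NSC. Of 37 vascular, fibroblast and meningeal markers 0 were called with limma (9 at an unadjusted p under 0.05), and they summed to 807 to 1024 in cerebellar NSC and 897 to 1180 in SVZ NSC. The neural crest list counted Pax3 and Tfap2a among its 23 members as its 2 calls, while its general Schwann and glial marker Sox10 differed by -0.21 ± 0.25 (adjusted p = 0.763), and the list summed to 962 to 1452 in cerebellar NSC and 1686 to 2100 in SVZ NSC. Of 34 ependymal and choroid plexus markers only Sostdc1 was called, and Foxj1, which drives the formation of motile cilia, read 3.07, 3.69 and 3.06 in cerebellar NSC and 4.13, 3.61 and 3.78 in SVZ NSC (-0.57 ± 0.19, adjusted p = 0.218). The part of these marker levels in the results was not tested. Thrsp and Cd14 were called in each of the 6 fits that leave out 1 of the arrays compared. Dio2 lost its call without cerebellar replicate 3, or SVZ replicate 1 or 2 (adjusted p up to 0.101). Slc7a11 lost its call without cerebellar replicate 3 or SVZ replicate 1 (adjusted p up to 0.0751). Bcas1 kept its call only without SVZ replicate 3 (adjusted p up to 0.179 otherwise). Slc7a11 was not called within the shared mark (adjusted p = 0.107).

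**Figure D5:**
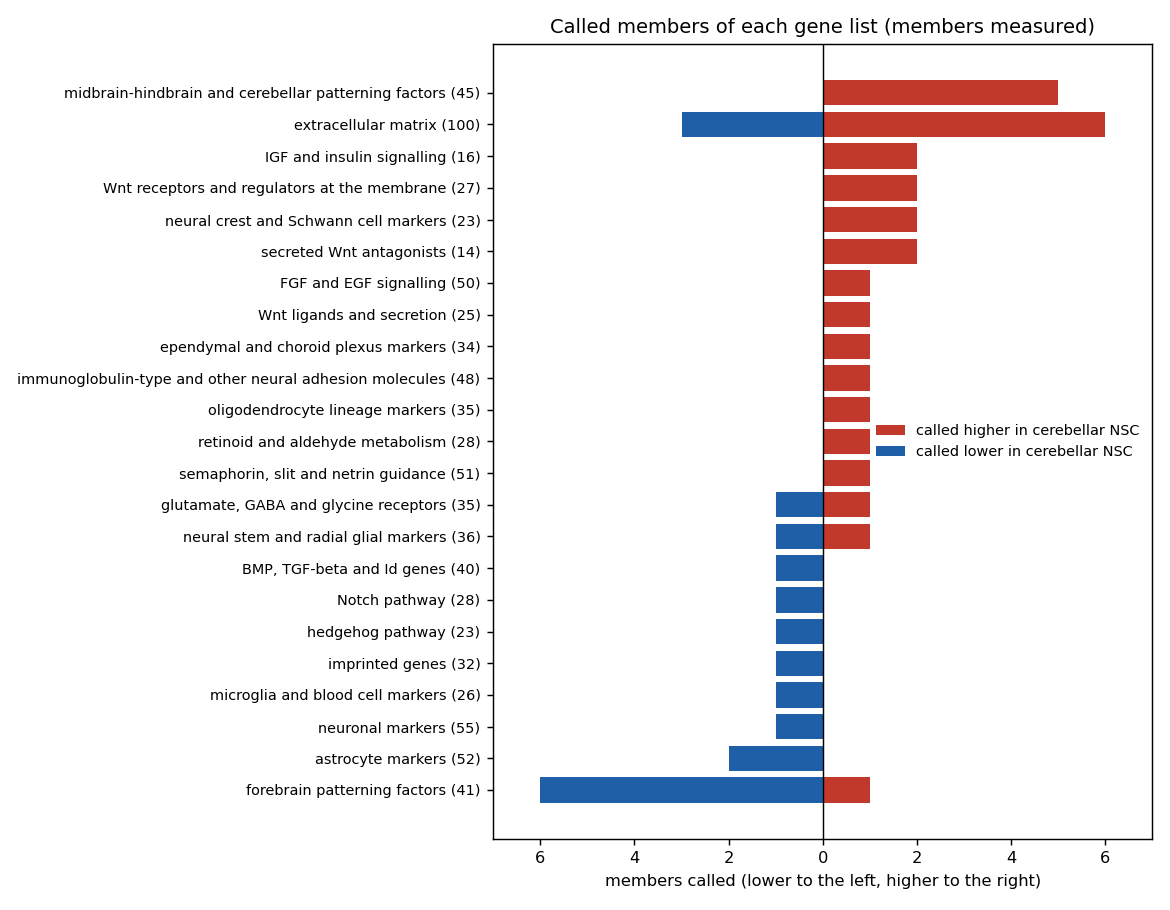
Number of members called higher (red, right of 0) and lower (blue, left of 0) in cerebellar than in SVZ NSC for each of the 23 gene lists with a called member, with the number of members measured in parentheses. The midbrain-hindbrain list has 5 calls, all higher, the forebrain list 6 lower and 1 higher, and the matrix list 6 higher and 3 lower.

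Genes of the primary cilium, the antenna-like organelle that carries hedgehog signalling, were among the small differences. Of 27 genes of intraflagellar transport and the Bardet-Biedl complex, grouped after values had been seen, 23 had differences below 0, with a median of -0.24. Differences below 0 were found for 7783 of all 18194 genes. Of the 27, 3 were called lower (0.533% of all genes were). These were Traf3ip1, with 4.54, 4.73 and 4.26 in cerebellar NSC and 5.74, 5.35 and 5.24 in SVZ NSC (-0.93 ± 0.17, adjusted p = 0.0411), Bbs1 (-0.79 ± 0.12, adjusted p = 0.0189) and Ttc26 (-0.46 ± 0.09, adjusted p = 0.0454), which encode parts of the transport trains and of the complex that loads them. Of 14 axonemal dynein genes, which belong to motile cilia, Dnaic1 was lower by at least 0.75 (adjusted p = 0.0101), and 9 had both means at or under the guide level. Traf3ip1 kept its call only without cerebellar replicate 2 (adjusted p up to 0.147 otherwise). Bbs1 lost its call without cerebellar replicate 3, or SVZ replicate 1 or 3 (adjusted p up to 0.091). Ttc26 lost its call whichever of the 6 arrays was left out (adjusted p up to 0.166). Dnaic1 lost its call without cerebellar replicate 3 (adjusted p = 0.0525). Traf3ip1, Bbs1, Ttc26 and Dnaic1 were not called within the shared mark (adjusted p 0.0791 to 0.31). Ttc26 (adjusted p = 0.0615) was not called with the replicate number as a block. Ttc26 was not called with only the 6 arrays compared (adjusted p = 0.0579).

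Lists of metabolism, proliferation and stress had no called member, where 1.10% of all genes were called. Of 49 cell cycle genes, 31 genes of cholesterol and fatty acid synthesis, 28 p53 targets, 30 hypoxia and glycolysis genes and 34 antigen processing and interferon genes, 0 were called with limma on 9 arrays, and 4, 9, 4, 4 and 6 had an unadjusted p under 0.05, as 13.7% of all genes did. The same was true of 19 Sox and nuclear factor I genes (5 at an unadjusted p under 0.05) and 53 secreted growth factor and neuropeptide genes (10), and of 28 retinoid and aldehyde genes only Nr2f1 was called. Cell cycle genes had a median difference of -0.012, and cholesterol and fatty acid genes one of -0.213, with 25 of 31 below 0 within -0.67 to 0.44. For all 18194 genes the median was 0.026, and 7783 were below 0. Fasn, the fatty acid synthase (-0.49 ± 0.11, adjusted p = 0.0863), and Srebf1, its transcriptional regulator (-0.46 ± 0.10, adjusted p = 0.0846), were the members nearest the threshold named here, and each read below SVZ in all 3 arrays. With the replicate number as a block, 1 member was called in each of the integrin (lower), p53 target (lower), Sox and nuclear factor I (higher), Wnt target (higher, Axin2) and BMP lists (higher), 1 Wnt membrane gene was lower, and the oligodendrocyte (2 higher) and neuronal lists (2 lower) gained 1 member each. Single enzymes outside these lists were higher: Gpd1, which links glycolysis to lipid synthesis, read 6.18, 5.24 and 6.41 in cerebellar NSC and 3.75, 3.70 and 3.73 in SVZ NSC (2.21 ± 0.27, adjusted p = 0.00537), and Pck2, the mitochondrial enzyme that turns oxaloacetate into phosphoenolpyruvate, read 6.92, 6.69 and 7.03 in cerebellar NSC and 5.65, 5.83 and 5.88 in SVZ NSC (1.10 ± 0.12, adjusted p = 0.00378). Gpd1 and Pck2 were called in each of the 6 fits that leave out 1 of the arrays compared. Gpd1 was not called within the shared mark (adjusted p = 0.0685).

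Some wide differences were called in neither fit, and the cerebellar arrays spread widely in them. Ecrg4, a secreted peptide precursor of the choroid plexus, read 7.11, 4.66 and 9.03 in cerebellar NSC and 2.93, 2.67 and 2.52 in SVZ NSC, so that every cerebellar array read above every SVZ array while the cerebellar arrays spread over more than 4 units (adjusted p = 0.0863 with 9 arrays and 0.0628 with 6). Aldh1a1, an enzyme of retinoic acid synthesis, read 4.63, 2.33 and 4.91 in cerebellar NSC and 1.50, 1.75 and 1.75 in SVZ NSC, with replicate 2 of the cerebellar group near background (adjusted p = 0.099 and 0.108). Pou3f1, a POU domain factor of glial and neural progenitors, read 6.20, 6.86 and 7.67 in cerebellar NSC and 3.95, 4.89 and 5.39 in SVZ NSC (adjusted p = 0.0608 and 0.0511, and 0.0219 with the replicate number as a block).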

How the data were processed

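Expression was measured on Affymetrix arrays, 3 per NSC group, and groups follow the sample labels. The deposited values are log2 intensities summarized by RMA, per the submitters' processing notes. Its version, the probe set definition and any genome build were not given in the sources used here. Values were used as deposited. Of 45101 probe sets 34958 had 1 gene symbol, 932 had several and 9211 were not listed. Of these 34754 were matched by Entrez ID, which changed 0 symbols. Each of 18194 genes was represented by its brightest probe set on average across the 31 arrays, and 9012 genes had several.

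The 9 NSC arrays were fitted together with limma 3.58.1 (lmFit and eBayes) in R 4.3.3, two-sided, with Benjamini-Hochberg adjustment over all genes and no filter on dim genes. The fit was tested on simulated data with known changes. Tables and figures used Python 3.11.15, pandas 2.3.3, numpy 2.4.6 and matplotlib 3.10.9. Promoters and gene neighbours were taken from RefSeq tables.

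Cerebellar and SVZ arrays of the same replicate number deviated together from their group means (r = 0.259, 0.417 and 0.234 over 11855 genes). Arrays of different numbers gave -0.27 to 0.001. The sample names also carry the same letter for the same number, so the number was used as a block in an alternative fit. The Y-linked signal given above was not alike in all cerebellar and SVZ arrays that share a number. The number is therefore not read as a shared animal or pool, and what it stands for was not tested. The main fit had no term for the replicate number, so its calls, standard errors and adjusted p are unpaired. The fit with the number as a block gave 280 calls, 173 of them among the 201 of the main fit.

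The gene lists and the genes described were chosen with earlier results of these data known. The rule named the 15 highest and 15 lowest called differences, every called list member, members of lists with fewer calls by smallest p, relatives of called genes and the first markers of other cell types. Other called genes, and the families formed from them, were chosen after their values were seen. Alternatives changed the arrays fitted, blocks, scaling, dim genes, probe set choice, variance model, fold minimum and arrays left out.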

Additional observations from a re-analysis of the deposited data

How the results depend on the processing

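The main test gave 201 calls, 104 higher and 97 lower in cerebellar NSC. Leaving out 1 array gave 61 to 245 calls, 22 to 154 higher and 37 to 91 lower. Fitting only the 6 arrays compared gave 349 (181 higher and 168 lower). The mark in the sample names as a block, which takes IV ventricle replicate 2 out of the spread, gave 728 (366 higher and 362 lower). A 2-fold minimum left 120 (64 higher and 56 lower). Without replicate 1 of every region there were 11 (2 higher and 9 lower) and without replicate 2 of every region 349 (208 higher and 141 lower), both chosen after seeing the data, and the cause was not tested. The replicate block gave 280 calls (139 higher and 141 lower), 173 of them among the 201, and changed no call of a gene described here other than those given beside the gene. The shared mark alone gave 144, median centring 190, renewed quantile normalization 197, dim genes left out 183, averaged probe sets 187, each probe set alone 237, and a trended robust variance model 181. Of the 201 calls, 50 were lost with averaged probe sets, 52 with each probe set alone and 26 with the trended robust model. Median centring lost 15 and renewed quantile normalization 16. Which genes described here were among these losses is not given beside the genes. Apart from the single further probe sets named above, no called gene described here changed sign under these alternatives. Signal near background limits what can be said of 35 called genes whose lower mean was at or under the guide level, and 3 arrays a group limit the rest.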
